A study of Arabidopsis thaliana with 15 samples.

Results

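Leaves that lack the DNA demethylases ROS1, DML2 and DML3 were compared with leaves in which these genes are intact, over all measured genes. The comparison holds the 4 libraries titled rdd (A to D) and the 4 titled WT (A to D), which are 8 of the 15 RNA-seq libraries of the study. Rosette leaf 5 of Arabidopsis thaliana was collected at day 21 from plants grown at 22 °C and 50% humidity with a photoperiod of 16 h, and polyadenylated RNA was sequenced. Every group carries a DME transgene, pAGL61::DME, whose promoter is known for activity in the central cell of the ovule. WT is a segregant without mutant alleles, named DRDD in the labels, and rdd carries ros1-3, dml2-1 and dml3-1. A second pair of groups shares no library with these: dme carries dme-2 (4 libraries), and drdd carries dme-2 with the 3 alleles of rdd (3 libraries). Whether each library is a separate plant is not stated in the labels; p-values therefore reflect the spread between libraries, which may be technical.

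DNA demethylases of plants are glycosylases that cut methylated cytosine out of DNA, after which base excision repair fills the gap with an unmethylated base. ROS1, DML2 and DML3 are active in leaves and other vegetative tissue, where they prune methylation at the edges of transposons and near genes, whereas DME is best known from the central cell. Methylation near the start of a gene often goes with silencing, but some genes are expressed only when a nearby element is methylated.

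Expression changed in a small set of genes, with more falls than rises. In rdd against WT 77 genes rose and 123 fell at a Benjamini-Hochberg adjusted p under 0.05 in edgeR's quasi-likelihood test, 1.08% of the 18598 genes tested (0.414% higher and 0.661% lower). DESeq2 on the same counts called 625 genes (2.97% of those it tested), and 2980 genes had an unadjusted p under 0.05 in edgeR. Of the genes that rose 39 did so by more than 2-fold and 9 by more than 16-fold. Of those that fell 71 did so by more than 2-fold and 21 by more than 16-fold. The median log2 fold change was 1.00 among the rises and -1.18 among the falls, beside -0.0056 over all tested genes. In 199 of the 200 genes no WT library overlapped an rdd library in level, against 10.3% of all tested genes; the exception was AT3G19850, a gene of the NPH3 family. Levels are given as CPM, the counts of a gene relative to the total of its library in the usual unit, after scaling of library sizes, and a level in bulk leaf RNA cannot tell fewer cells of a type from less RNA per cell. In the authors' deposited table, made with DESeq2, 943 of 20061 genes passed (4.7%), 496 higher and 447 lower, and 199 of the 200 genes were among them in the same direction.

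**Figure D1:**
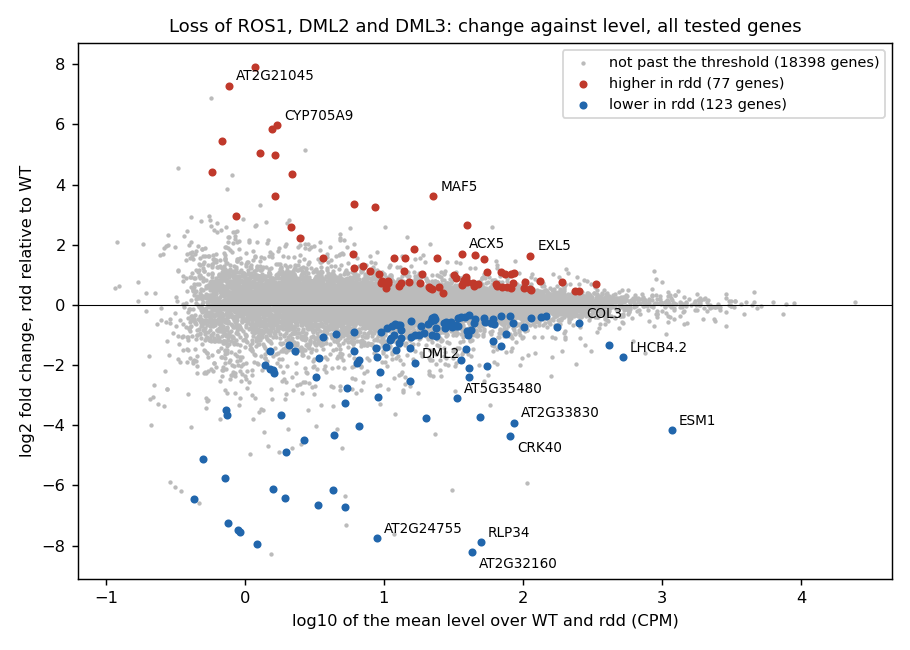
Log2 fold change of rdd relative to WT (vertical axis) against log10 of the mean level over the 8 libraries in CPM (horizontal axis), 1 point per tested gene. The 77 genes higher in rdd are red, the 123 lower ones blue and all others grey; the deepest blue points lie near a log2 fold change of -8 and span low to moderate levels.

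Libraries held 8730340 (WT B) to 23302135 (rdd D) counts assigned to genes, with 20570 to 21119 genes detected in each WT or rdd library. All 25 photosynthesis genes of the leaf list passed the filter on low counts, with mean levels of 10.2 to 10.6 log2 CPM per library, and none of the 7 shoot meristem or 3 seed storage markers passed it or exceeded 0.324 CPM in any WT or rdd library. The libraries within a group were uneven in stress genes. The 21 tested genes of salicylic acid defence averaged 5.45, 2.15, 4.90 and 2.11 log2 CPM over WT A to D, and rdd A to D averaged 2.14, 5.25, 1.57 and 1.61. WT A, WT C and rdd B thus stood apart from the other 5 libraries. The 200 calls depended on which libraries were included, with shifts of over 1.5 times. The count was 110 when WT A was left out, 94 for WT C, 113 for rdd A, 100 for rdd C and 93 for rdd D. It was 327 when rdd B was left out, 315 for dme C, which shares in the estimate of spread, and 504 for both.

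The mutated genes were read first. DML2, on chromosome 3, stood at 31.9, 25.2, 27.1 and 21.3 CPM in WT A to D, whereas the rdd libraries, in the same order, held 6.50, 10.1, 5.89 and 5.30. Every rdd library lay below every WT library, and DML2 fell with a log2 fold change of -1.94 (SE 0.21, adjusted p = 0.000141). DML3, on chromosome 4, had 6, 7.75, 7.52 and 4.78 CPM in WT and 4.24, 2.30, 3.60 and 2.76 in rdd, and did not pass (log2 fold change -1.01, SE 0.26, adjusted p = 0.0823). The groups do not overlap for DML3, and DESeq2 on the same counts gave an adjusted p of 0.0144. ROS1, on chromosome 2, had 72.4, 92.4, 71.4 and 88.5 CPM in WT and 68.3, 55.8, 57.1 and 52.9 in rdd (fold change of -0.47 in log2, SE 0.15, adjusted p = 0.161). The groups stood apart for ROS1 as well, although the gap between rdd A and WT C was small. DME was at 89.5 ± 10.1 CPM in WT and 85.3 ± 14.4 in rdd (SD, n = 4 each; adjusted p = 0.811). Counts were summed per gene, so they include reads from either side of an insertion and do not test whether a complete transcript is made, and reads of DME may include the transgene.

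Reference sequence upstream of 3 genes is shown because these enzymes act on methylated cytosine, which in plant genes lies mostly in CG: the start regions of the flowering gene MAF5, of CYP705A9, which is nearly silent in WT, and of AT2G32160, which has the largest fall. Each run is 300 bases long, from 250 before the annotated transcript start onwards, 5′ to 3′ on the gene's strand, and capitals mark CG. They were read from the RefSeq assembly TAIR10.1 at chr5:25997254-25997553 (plus strand), chr2:11527805-11528104 (minus strand) and chr2:13661888-13662187 (plus strand). They are not sequences of the plants studied, in which methylation was not measured here.
MAF5: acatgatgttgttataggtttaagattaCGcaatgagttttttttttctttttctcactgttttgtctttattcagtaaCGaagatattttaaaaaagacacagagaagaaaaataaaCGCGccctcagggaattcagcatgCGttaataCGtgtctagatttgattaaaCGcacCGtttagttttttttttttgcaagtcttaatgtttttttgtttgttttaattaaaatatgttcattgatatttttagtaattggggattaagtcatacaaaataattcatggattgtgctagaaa
CYP705A9: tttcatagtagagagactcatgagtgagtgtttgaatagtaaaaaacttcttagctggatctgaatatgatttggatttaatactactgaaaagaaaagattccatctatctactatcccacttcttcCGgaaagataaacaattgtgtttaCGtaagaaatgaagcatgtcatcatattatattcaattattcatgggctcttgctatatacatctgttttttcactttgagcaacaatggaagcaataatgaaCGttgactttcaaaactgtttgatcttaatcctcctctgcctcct
AT2G32160: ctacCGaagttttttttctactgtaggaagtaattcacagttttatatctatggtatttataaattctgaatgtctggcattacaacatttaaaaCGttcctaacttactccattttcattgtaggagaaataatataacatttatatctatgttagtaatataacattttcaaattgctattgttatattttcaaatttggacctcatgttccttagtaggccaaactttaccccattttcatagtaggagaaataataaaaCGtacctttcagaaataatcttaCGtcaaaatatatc
The MAF5 window holds 8 CG, that of CYP705A9 3 and that of AT2G32160 4. The median was 6 CG over the 77 genes that rose, 5 over the 123 that fell and 6 over the windows of all 18548 tested genes with an annotated start. The middle of the range was 4 to 8 CG for rises, 3 to 8 for falls and 4 to 9 for all tested genes, as lower and upper quartiles. Every window was searched for the letters CG, which read the same on both strands. Windows with 10 or more CG made up 16.9% of the rises, 17.9% of the falls and 24.0% of all tested genes, and median GC content was 32%, 29.3% and 32%. These differences were not tested. Windows without any CG made up 1.30% of the rises, 2.44% of the falls and 1.89% of all tested genes.

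Among the rises, MAF5 had the highest level of those that gained over 8-fold. MAF5 is a MADS-box gene of the clade of FLC, a repressor of flowering. It had 5.84, 4.33, 1.74 and 1.81 CPM in the WT libraries A to D and 42.8, 37.8, 44.0 and 42.2 in those of rdd. The rdd libraries were close to each other and far above WT, whose own libraries fell into a higher pair (A and B) and a lower pair (log2 fold change 3.61, SE 0.33, adjusted p = 5.35e-05). The other 13 tested floral repressors did not pass: MAF1, MAF2 and MAF3 had log2 fold changes of -0.03, 0.09 and 0.11, and MAF4 had 6.08, 0, 0.661 and 10.7 CPM in WT against 14.3, 9.62, 9.06 and 14.6 in rdd, which overlap. FLC itself ranged from 0.228 to 17.5 CPM in WT and from 0.722 to 2.07 in rdd (adjusted p = 0.383). MAF2 to MAF5 are close copies in a row, so reads shared between them could be assigned unevenly. The 12 tested floral promoters, which include FT and SOC1, had 0 members past the threshold and a median log2 fold change of 0.12.

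Several genes near silence in WT were expressed in rdd. AT3G06245, a noncoding RNA, had no count in any WT library and 1.99, 3.24, 1.58 and 2.63 CPM in those of rdd, which is at least 35.7-fold higher against a floor of 3 counts over the WT group. AT2G21045, which encodes a rhodanese-like protein, had none in WT and rdd levels of 1.44, 0.836, 2.20 and 1.64 CPM, which makes it at least 23.1-fold higher. Both stood above 0 in every rdd library; floors cover counting error only. The cytochrome P450 gene CYP705A9 had 0, 0, 0.0827 and 0.0823 CPM in WT and 3.25, 4.08, 3.52 and 2.63 in rdd (fold change of 5.97 in log2, SE 0.61, adjusted p = 9.88e-05). AT3G07260, a gene for an FHA domain protein, had the same WT values and rdd levels of 2.53, 2.61, 3.96 and 3.27 CPM (log2 fold change 5.86, SE 0.64, adjusted p = 0.000191). In both genes each WT level is 1 count or none, so the size of the fold change rests on few reads. CYP72A10, another P450, rose from at most 0.165 CPM to 1.88 to 3.08 CPM (log2 fold change 5.03, adjusted p = 0.00346), and members of this family share sequence. CYP72A10 was also expressed with the 3 genes intact in dme, at 0.245 to 2.11 CPM, beside 1.49 to 2.56 CPM in drdd. It did not pass in drdd against dme (log2 fold change 0.72, edgeR adjusted p = 0.57). CYP81D11 (4.98) and the antimicrobial thionin gene THI2.2 (4.35) also passed, with single rdd libraries well above the rest, at 6.59 CPM in rdd A for the P450 and 7.93 CPM in rdd D for the thionin, and their calls were lost in 12 of 19 and 10 of 20 alternative fits.

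Further rises over 4-fold began at a low WT level. SCPL7, a serine carboxypeptidase-like gene, had 1.62, 3.31, 0.744 and 1.07 CPM in WT and 19.7, 9.41, 15.3 and 17.8 in rdd, and CSLB03, a cellulose synthase-like gene, had 8.27, 12.2, 7.36 and 15.7 CPM in WT and 83.0, 41.4, 81.1 and 67.7 in rdd. In both genes rdd B was the lowest rdd library and still above all WT libraries. The protein kinase gene AT3G06630 rose from 1.06 to 11.1 CPM as group means (log2 fold change 3.35, adjusted p = 0.0231) and AT3G09450, of a fusaric acid resistance family, from 0.241 to 3.05 CPM (3.61, adjusted p = 0.00929). The call of AT3G06630 was lost in 6 of 19 alternative fits and that of AT3G09450 only without WT C. In drdd, which carries the same 3 alleles, AT3G06630 stood at 8.42, 0.885 and 0.688 CPM in libraries B to D. In dme it stood at 0.421 to 0.875 CPM (drdd against dme, edgeR adjusted p = 0.0949).

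Among the rises of lowest adjusted p were genes with moderate WT levels. ACX5, which encodes a peroxisomal acyl-CoA oxidase of fatty acid breakdown, had 15, 18.1, 18 and 17.5 CPM in WT and 63.7, 46.4, 58.6 and 54.7 in rdd (fold change of 1.70 in log2, SE 0.14, adjusted p = 7.85e-06). AT2G35810, annotated as a ureidoglycolate hydrolase, had 22.9, 19.5, 19.6 and 24.5 CPM in WT and 68.4, 69.4, 68.4 and 68.4 in rdd (1.67, SE 0.15, adjusted p = 4.34e-05). In both genes all rdd libraries lay far above the highest WT library. The protein kinase gene AT2G30740 went from 21.3 ± 1.47 to 42.6 ± 3.56 CPM and the uncharacterized gene AT2G25964 from 7.09 ± 1.42 to 25.8 ± 2.89 CPM. EXL5, one of the 8 most abundant rises and an EXORDIUM-like gene of a family tied to growth, had 27.5, 65.1, 57.9 and 69.8 CPM in WT and 176, 113, 239 and 154 in rdd (1.63, SE 0.29, adjusted p = 0.0138), and its call was lost without WT C and with the 8 libraries fitted alone (largest adjusted p = 0.0608). Its relative EXL3 rose from 48.8 to 99 CPM as group means (1.02, adjusted p = 0.0316).

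The 8 most abundant rises were EXL5, with the log2 fold change of 1.63 given above, and 7 genes that rose by less than 2-fold. The rubisco accumulation factor-like gene AT3G04550 stood at 254 ± 53.0 CPM in WT and 412 ± 22.8 in rdd (log2 fold change 0.70, adjusted p = 0.0329). MSD1, the manganese superoxide dismutase of mitochondria, stood at 212 ± 17.6 and 296 ± 12.1 CPM (0.48, adjusted p = 0.0202), the malate dehydrogenase gene MDH at 93.6 ± 11.4 and 133 ± 15 CPM (0.51, adjusted p = 0.044) and POP2, the transaminase that breaks down GABA, at 92.3 ± 7.19 and 133 ± 15.5 CPM (0.53, adjusted p = 0.0317). All 4 rdd libraries were above all WT libraries in each of the 4 genes, which their selection required. Their calls depended on the set of libraries, being lost in 8, 7, 13 and 8 of 20 alternative fits. AT4G10060, a beta-glucosidase gene, CYP72A13 and the TIR class resistance gene AT1G61100 were the other 3, with log2 fold changes of 0.45, 0.76 and 0.78, and their calls were lost in 12, 14 and 8 of 20 alternative fits. In the second pair of groups, drdd against dme, only POP2 of the 8 passed (log2 fold change 0.47, edgeR adjusted p = 0.047). The other 7 had log2 fold changes there from -0.07 (MDH) to 0.59 (EXL5).

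Falls reached the floor of detection for genes that WT leaves clearly expressed. AT2G32160, annotated as an S-adenosylmethionine-dependent methyltransferase, had 138, 44.2, 103 and 56.7 CPM in WT against 0.722, 0.105, 0.176 and 0.172 in rdd (fold change of -8.22 in log2, SE 0.56, adjusted p = 3.46e-06). Its neighbour and relative AT2G32170 fell less, from 40.2 to 25.4 CPM as group means (-0.66, adjusted p = 0.00633). The long noncoding RNA AT2G24755 had 20.0, 17.1, 18.4 and 15.6 CPM in WT and 0, 0.105, 0.0879 and 0.0862 in rdd (-7.76, SE 0.32, adjusted p = 5.85e-09), the lowest adjusted p of all genes tested. The WT libraries were close to each other in this gene, and no rdd library held more than 2 counts. AT2G33830, of the dormancy and auxin associated family, had 218, 166, 140 and 123 CPM in WT and 9.39, 11.9, 7.83 and 13.3 in rdd (-3.92, SE 0.25, adjusted p = 9.05e-07).

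A group of tight falls sat at intermediate levels. AT2G40960, which encodes an R3H domain protein, had 27.0, 25.7, 26.8 and 25.4 CPM in WT and 4.42, 4.08, 4.31 and 5.08 in rdd (fold change of -2.54 in log2, SE 0.13, adjusted p = 4.41e-08). AT2G21860, a violaxanthin de-epoxidase-like gene, went from 68.4 ± 7.89 to 12.8 ± 1.80 CPM, AT2G21080 from 12.5 ± 2.30 to 0.787 ± 0.211 CPM, and AT5G35480 from 59.7 ± 9.40 to 6.98 ± 1.6 CPM. These 4 genes passed in every one of their 20 alternative fits. SEH, a soluble epoxide hydrolase gene, and KELP, a transcriptional coactivator gene, fell as well: SEH from 129, 64.1, 104 and 66.4 CPM to 6.41, 2.61, 9.41 and 8.62 CPM, and KELP from 119, 79.7, 110 and 92.0 CPM to 39.2, 39.9, 35.6 and 40.7 CPM.

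The largest amount of RNA lost belonged to ESM1, which steers glucosinolate breakdown toward isothiocyanates. ESM1 had 1490, 2537, 2207 and 2653 CPM in WT and 112, 70.3, 188 and 127 in rdd (fold change of -4.16 in log2, SE 0.77, adjusted p = 0.0213). No rdd library came near a WT library, yet the call was lost in 5 of 20 alternative fits (largest adjusted p = 0.0887), among them those without WT C, rdd A, rdd C or rdd D. The same gene split the dme group, at 1221 and 1401 CPM in dme A and B and 119 CPM each in dme C and D, which enters the shared estimate of spread; with the 8 libraries alone the adjusted p was 0.000595. The other 13 tested genes of glucosinolate synthesis and breakdown did not pass, and the list's median log2 fold change was 0.09. LHCB4.2, an antenna protein of photosystem II, had 966, 607, 995 and 654 CPM in WT and 239, 221, 236 and 263 in rdd (-1.75, SE 0.23, adjusted p = 0.000896). Its paralog LHCB4.1 (-0.08) and the other antenna genes LHCB5 (-0.07) and LHCB6 (-0.21) did not pass, nor did any of the 25 photosynthesis genes of the list, whose median was -0.03.

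Receptor genes were among the deepest falls. RLP34, a receptor-like protein gene, had 197, 25.1, 141 and 32.4 CPM in WT and 0.993, 0.105, 0.791 and 0 in rdd (fold change of -7.90 in log2, SE 0.94, adjusted p = 0.000816). CRK40, a cysteine-rich receptor-like kinase gene, had 244, 84.8, 203 and 87.0 CPM in WT and 7.40, 10.5, 8.88 and 4.18 in rdd (-4.35, SE 0.44, adjusted p = 0.000155). Both genes were higher in WT A and WT C than in WT B and WT D, as was the salicylic acid list. In rdd B, where that list was also high, RLP34 was at 0.105 CPM and CRK40 at 10.5 CPM, its highest rdd level. A part of the uneven libraries in these falls was not tested. CRK39, next to CRK40, fell from 3.24, 0.342, 1.98 and 0.165 CPM to 1 count in rdd D and none elsewhere. The 23 listed NLR and pattern receptor genes had 0 members past the threshold and a median of -0.31.

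Several genes of lower WT level were near 0 in rdd. LBD26, a LOB-domain transcription factor gene, had 4.38, 1.37, 4.30 and 2.55 CPM in WT and at most 0.105 in rdd, and AT3G09160, an RNA-binding protein gene next to AT3G09162, had 3.31 to 4.69 CPM in WT and at most 0.0903 in rdd. MRD1, named for a response in the mto1 mutant, had 16.5, 0.798, 24.1 and 0.576 CPM in WT and at most 0.271 in rdd (adjusted p = 0.0297). AT2G34655 had 19.4, 2.05, 11.4 and 1.32 CPM in WT and at most 0.181 in rdd (adjusted p = 0.0357). In MRD1 and AT2G34655, too, WT A and WT C were the high libraries, and both calls were lost in 8 alternative fits. QQS, an orphan gene known to affect starch, followed the same order with 21.4, 3.19, 11.4 and 2.06 CPM in WT and 0.451 to 1.36 CPM in rdd (adjusted p = 0.0383).

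Other abundant falls were small and tight. COL3, a B-box gene related to CONSTANS, had 327, 285, 315 and 305 CPM in WT and 187, 192, 215 and 213 in rdd, and its log2 fold change of -0.61 (SE 0.10, adjusted p = 0.00807) passed in all 20 alternative fits. EIL1, a transcription factor of ethylene signalling, stood at 154 ± 1.76 CPM in WT and 116 ± 5.43 in rdd (-0.41, adjusted p = 0.0438). The groups stood apart for EIL1 too, which its selection required, and its call was lost in 13 of 20 alternative fits. AT5G10960, a ribonuclease H-like gene, and the protein kinase gene AT3G56050 fell by 0.45 and 0.35 on the log2 scale, and their calls were lost in 3 and 15 of 20 alternative fits.

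**Figure D2:**
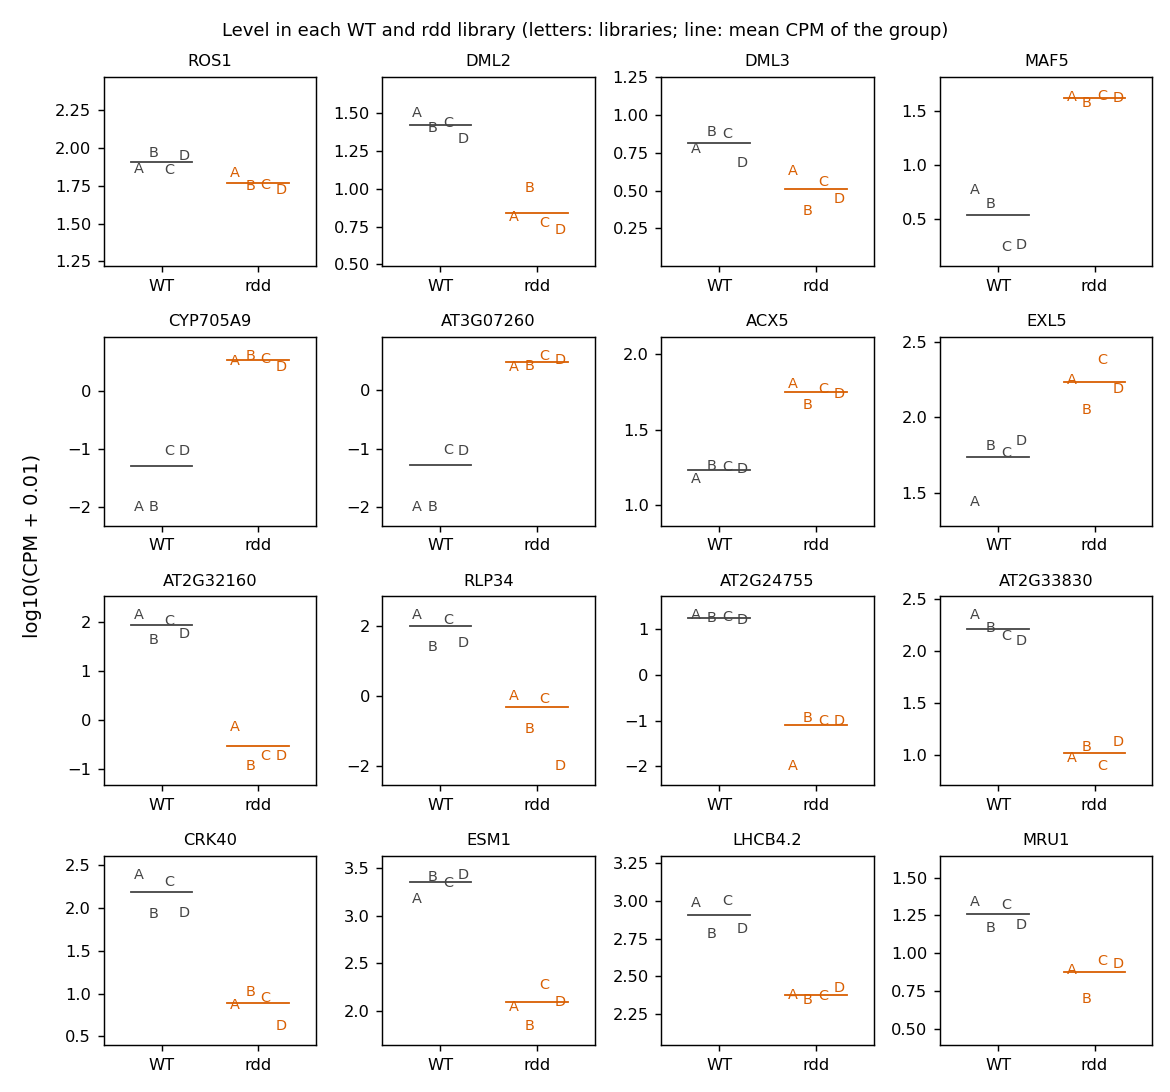
Level of 16 genes in each WT (grey) and rdd (orange) library as log10(CPM + 0.01), with the library's letter as the point and a line at the mean CPM of the group; vertical axes differ between genes. Groups do not overlap in any panel: in MAF5, CYP705A9, AT3G07260, ACX5 and EXL5 every rdd library is above every WT library, and in ROS1, DML2, DML3 and the 8 genes from AT2G32160 to MRU1 every one is below.

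Noncoding RNAs and pseudogenes were called more often than protein-coding genes and mostly fell. Of 358 tested noncoding RNAs 1 rose and 11 fell (3.35%), of 187 pseudogenes 1 rose and 8 fell (4.81%), and of 18003 protein-coding genes 75 rose and 104 fell (0.994%). AT4G13495 was the most abundant of these noncoding RNAs, with 592, 511, 684 and 571 CPM in WT and 251, 291, 206 and 195 in rdd (fold change of -1.32 in log2, SE 0.17, adjusted p = 0.000816). The pseudogene AT2G23330 had 6.81, 7.30, 6.61 and 5.93 CPM in WT, 0.181 and 0.105 in rdd A and rdd B, and no count in rdd C and rdd D (-6.64, SE 0.53, adjusted p = 3.34e-05). The strand setting of the counts is not given in the sources used here, so a noncoding RNA that overlaps another gene cannot be told apart from it. Complete loss of counts was seen in 5 genes. Among those at 1 CPM or more in WT, AT3G09162 was at least 44.8-fold lower, the noncoding RNA AT4G04223 at least 33.7-fold, the acyltransferase gene AT2G25150 at least 32.9-fold and the noncoding RNA AT2G22821 at least 27.9-fold.

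Changed genes were concentrated on chromosomes 2 and 3, which carry ROS1 and DML2. Both chromosomes together held 140 of the 200 calls (70.0%) and 34.9% of the tested genes, while chromosomes 1, 4 and 5 held 60. Around ROS1 the calls lay on one side: within 7 Mb before the gene 61 of 1252 tested genes passed (4.87%), against 8 of 938 within 5 Mb after it (0.853%). The densest Mb was 4 to 5 Mb before ROS1, with 15 of 163 genes (9.20%). Around DML2 calls were dense on both sides, at 37 of 886 genes within 2 Mb (4.18%), with 19 higher and 18 lower, and thinned to 4 of 454 genes at 2 to 3 Mb (0.881%). Around DML3 only 3 of 832 genes within 2 Mb passed (0.361%). Of the genes described above, those within 2 Mb of ROS1 include ACX5, AT2G35810, AT2G32160, AT2G32170, AT2G34655, AT2G33830 and AT2G40960. Those within 2 Mb of DML2 include RLP34, LHCB4.2, MSD1, AT3G07260, AT3G09160, AT3G09162, AT3G09450, AT3G06630, AT3G04550, ESM1, CYP72A10 and CYP72A13. Genes further from ROS1 on chromosome 2 include AT2G24755 and CYP705A9, and MAF5 lies on chromosome 5. Genes next to a mutated locus come with the mutant allele when lines are crossed, so an effect of the lost enzyme and of linked sequence cannot be told apart here.

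**Figure D3:**
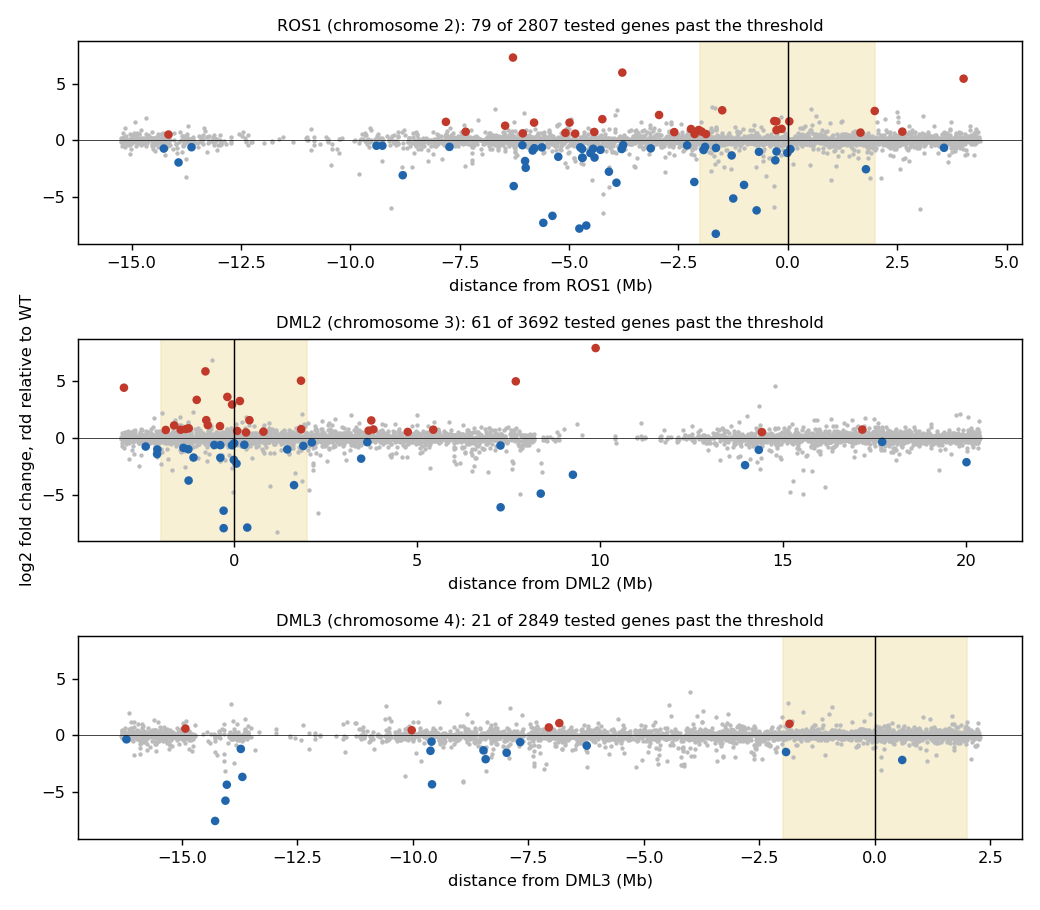
Log2 fold change of rdd relative to WT (vertical axis) by distance in Mb from ROS1, DML2 and DML3 (horizontal axes), for the tested genes of chromosomes 2, 3 and 4. Red and blue points are genes past the threshold, higher and lower, grey points are all others (drawn at 9 or -9 where beyond) and shading marks 2 Mb on either side; calls are dense to the left of ROS1, on both sides of DML2 and sparse around DML3.

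Some changed genes were direct neighbours. Of the 200 calls 24 (12%) had another call as the next tested gene, whereas 2.1% of all tested genes lie next to a call, and they form 11 runs, 8 of them in a single direction. The longest runs hold 3 genes. MAPR2, a membrane steroid-binding protein gene (221 ± 10.5 CPM in WT, 131 ± 19.5 in rdd), AT2G24945 (3.39 ± 0.529 and 1.19 ± 0.209 CPM) and AT2G24960 (9.06 ± 0.821 and 3.09 ± 0.562 CPM) all fell. AT2G35810 and AT2G35820 rose, the second from 23.0 ± 3.56 to 43.1 ± 4.26 CPM, while AT2G35830 beside them fell from 100 ± 7.85 to 50.8 ± 8.62 CPM. The MAPR2 call was lost in 10 and the AT2G24945 call in 6 of 20 alternative fits. AT2G35810, AT2G35820 and AT2G35830 share an annotation as ureidoglycolate hydrolases, so a shift of reads between copies and a change of each gene were not told apart.

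The same 3 mutations were measured again in plants that also carry dme-2, as drdd against dme, with no library in common. There 420 genes passed (2.26%), 171 higher (0.919%) and 249 lower (1.34%). Of the 200 genes of rdd against WT 80 passed again in the same direction (27 higher and 53 lower), which is 40.0% of the first list and 19.0% of the second, and 1 passed in the opposite direction. The share of the first list that passed again was 26.7% without drdd C, 60.2% without rdd D, 62% without rdd C and 20.0% when each pair of groups was fitted alone. In sign alone 174 of the 200 (87.0%) went the same way, against 61.0% of all tested genes. The share that passed again grew with the size of the change: 16 of 90 genes up to 2-fold, 25 of 53 from 2-fold to 4-fold, 16 of 27 from 4-fold to 16-fold and 23 of 30 above. Both comparisons carry the same alleles and linked sequence and share the estimate of spread.

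Some genes that passed again had close values in both comparisons, and others did not. ACX5 had 14, 15.1, 11 and 17.5 CPM in dme A to D and 49.3, 48.9 and 43.4 in drdd B to D (log2 fold change 1.71, SE 0.14, adjusted p = 9.77e-06), beside 1.70 in rdd against WT. AT2G40960 stood at -2.69 beside -2.54, AT2G32160 at -8.41 beside -8.22 and CYP705A9 at 6.42 beside 5.97. KELP stood at -1.46 beside -1.36 and AT2G35810 at 1.6 beside 1.67. Values further apart were those of AT2G24755 (-8.92 beside -7.76), AT2G33830 (-7.27 beside -3.92), AT2G23330 (-9.44 beside -6.64), AT3G09160 (-8.90 beside -6.41) and AT3G09162 (-5.23 beside -7.95), of which only AT2G33830 passed the test of the difference. Falls that did not pass again include those of CRK40 (-1.62 beside -4.35), LHCB4.2 (-0.88 beside -1.75) and COL3 (-0.31 beside -0.61). Their edgeR adjusted p in drdd against dme was 0.0676, 0.079 and 0.187. Among the calls within 2 Mb of a mutated gene 29 of 64 passed again (45.3%), and among the others 51 of 136 (37.5%). Over all tested genes, 3.28% of those within 2 Mb and 2.1% of those elsewhere passed in drdd against dme. Calls elsewhere include those of the dense stretch more than 2 Mb before ROS1. By chromosome, 64 of 140 calls passed again on chromosomes 2 and 3, and 16 of 60 on chromosomes 1, 4 and 5.

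A test of the difference between both comparisons separated 7 of the 200 genes, out of 20 of all tested genes (0.108%). MAF5 had 48.7, 40.2, 25.4 and 28.9 CPM in dme and 62.1, 49.6 and 48.9 in drdd, so that only WT was low, and the difference of its effects was -3.03 on the log2 scale (SE 0.45, adjusted p = 0.0192). ENT6, an equilibrative nucleoside transporter gene, fell in rdd from 2.76, 3.65, 3.22 and 3.87 CPM to 0.361, 0.209, 0.264 and 0.215 CPM, but stood at 4.96 ± 2.32 CPM in dme and 5.59 ± 1.63 in drdd (interaction 3.84, SE 0.48, adjusted p = 0.00441). AMP1, a gene known for limiting shoot meristem size, rose in rdd from 14, 14.6, 12.2 and 13.8 CPM to 17.3, 22.8, 25.8 and 24.6 CPM and fell in drdd to 5.52 ± 1.11 from 12.4 ± 0.915 CPM in dme (interaction -1.90, SE 0.22, adjusted p = 0.00229). AMP1 is the gene that passed in opposite directions. Of the remaining 4, all fell in both and further in drdd: AT2G33830 reached 0.809 CPM in drdd from 119 in dme (interaction -3.35), AT4G13575 3.38 from 85.9 (-2.64), MRU1 1.01 from 12.6 (-2.40) and AT4G13495 84.6 from 614 (-1.54).

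**Figure D4:**
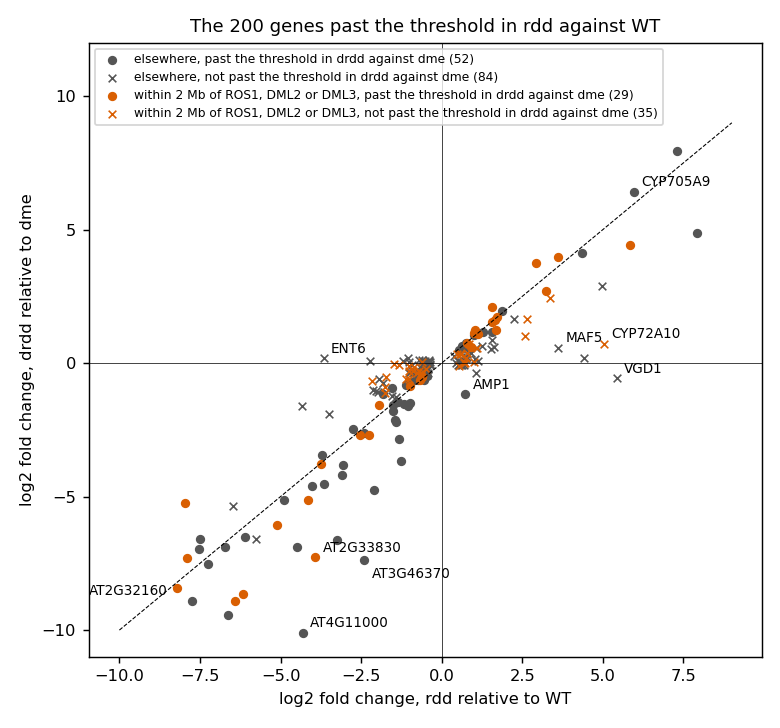
Log2 fold change of drdd relative to dme (vertical axis) against that of rdd relative to WT (horizontal axis) for the 200 genes past the threshold in the latter; the dashed line marks equal values. Filled points passed in both comparisons and crosses only in rdd against WT, with genes within 2 Mb of a mutated gene in orange; most points lie in the quadrants of equal sign, and MAF5, ENT6 and VGD1 lie far from the line.

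Across the 28 gene lists, 4 of the 312 tested members passed (1.28%, beside 1.08% of all tested genes): DML2, MAF5, ESM1 and VGD1. None of the 27 tested genes of the DNA methylation machinery passed (median 0.04), with MET1, the maintenance methyltransferase for CG, at 0.21 and CMT3, which acts outside CG, at -0.27, and none of 16 repair partners did (median 0.01). The 6 imprinted or silenced genes such as FWA did not reach the filter, and none exceeded 0.813 CPM.

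No tested member of the defence and stress lists passed, and most of these lists had negative medians. The median was -0.69 for salicylic acid defence, with 5 of 21 genes above 0, -0.41 for jasmonate synthesis and response (4 of 21), -0.65 for rapid wound and touch genes (3 of 17) and -0.32 for cold and drought genes (4 of 11). Jasmonate list means (log2 CPM) were 5.01, 2.87, 4.24 and 2.84 for WT A to D and 2.94 to 3.70 in rdd. Wound and touch means were 4.29, 2.71, 3.56 and 3.06 in WT and 2.44 to 3.74 in rdd. In both lists WT A and WT C were high, rdd B was the highest rdd library, and the groups overlap. Cold and drought means split the other way, at 4.82, 6.56, 4.79 and 6.69 in WT and 5.24 to 6.38 in rdd. These medians therefore do not show a lowering shared by all rdd libraries. The heat response list had a positive median of 0.20, with 5 of 5 tested genes above 0. Its mean was 2.81 to 2.98 log2 CPM in WT and 2.83, 3.88, 3.15 and 2.63 in rdd A to D. These groups overlap, with rdd B highest and rdd D below every WT library. PR1, the classic salicylic acid marker, had 503, 2.05, 334 and 1.15 CPM in WT and 1.26, 13.0, 0.615 and 0.172 in rdd, groups that overlap (adjusted p = 0.159). WT A and WT C were high and WT B and WT D low for PR1.

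Lists of leaf cell types in part stood higher in rdd, again with 0 members past the threshold in edgeR. In the stomatal lineage list 11 of 12 tested genes were above 0 (median 1.1). SPCH, which starts the lineage, had 0.0811, 0.228, 0.165 and 0.412 CPM in WT and 1.44, 3.14, 2.99 and 1.77 in rdd (adjusted p = 0.0698), and the receptor-like gene TMM had 0.405, 1.25, 1.65 and 3.13 CPM in WT and 11.2, 12.9, 10.6 and 4.44 in rdd (adjusted p = 0.0535). The groups do not overlap in either gene, and in DESeq2 on the same counts the adjusted p was 0.00256 and 0.000312. FAMA, which acts when guard cells form, was at 34.8 ± 5.22 and 40.7 ± 4.1 CPM. All 9 guard cell markers (median 0.36) and all 10 xylem markers (median 0.74) were above 0. Xylem list means of the 2 groups overlapped, at 2.85 log2 CPM in rdd C and 2.87 in WT B. Guard cell means were 3.40 to 3.95 in dme and 3.57 to 3.81 in drdd. Xylem means overlapped there too, at 1.59 to 3.04 in dme and 2.55 to 3.86 in drdd. Stomatal lineage means did not, at 1.14 to 2.35 in dme and 2.41 to 3.44 in drdd. Phloem (0.08) and epidermis markers (-0.03) had medians near 0. Cell-type shares were not measured, and their part in any single result was not tested.

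**Figure D5:**
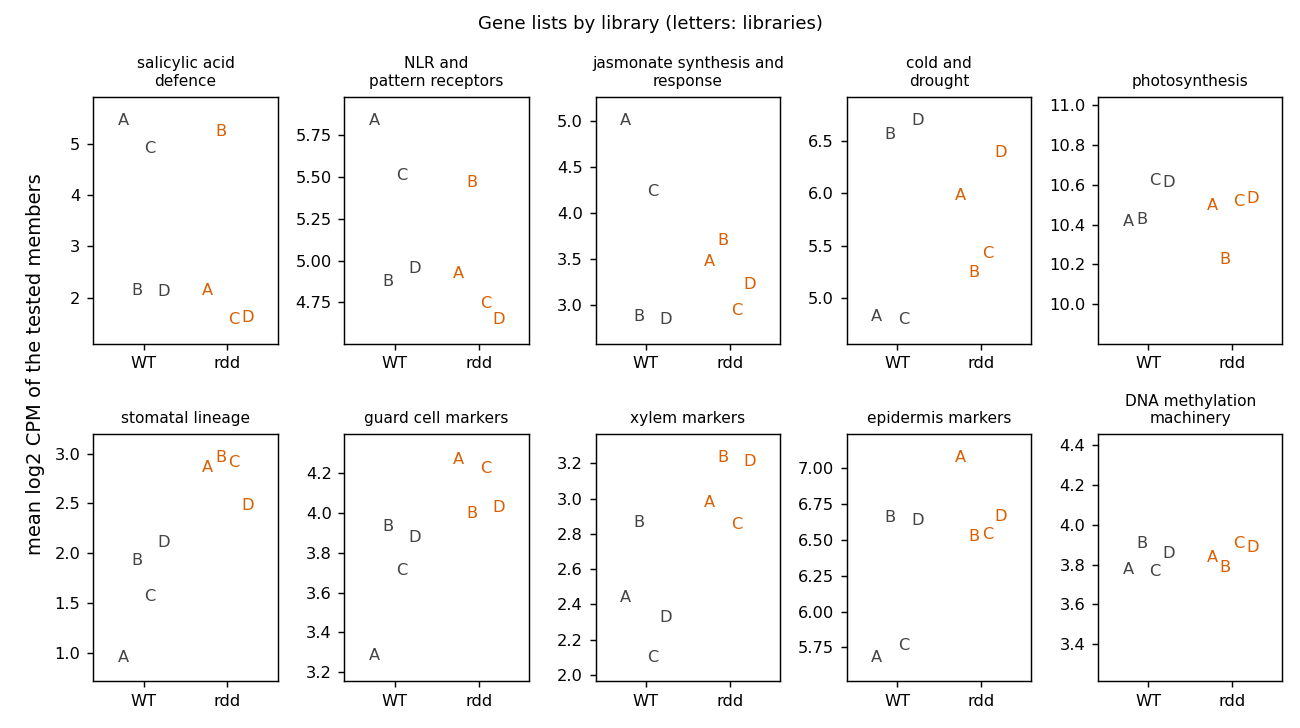
Mean log2 CPM of the tested members of 10 gene lists in each WT (grey) and rdd (orange) library, with letters as points; vertical axes differ between lists. The salicylic acid and receptor lists are high in WT A, WT C and rdd B, whereas every rdd library is above every WT library for the stomatal lineage and guard cell lists.

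VGD1, which encodes a pectin methylesterase known from pollen tubes, was the one listed flower or pollen marker to pass. It had no count in WT A to C, 0.0823 CPM in WT D, and 0.0903, 1.57, 1.76 and 1.98 CPM in rdd (fold change of 5.44 in log2, SE 1.13, adjusted p = 0.0344). The level in rdd A was that of 1 count, and the call was lost in 7 of the 16 alternative fits that tested it, among them each that left out a WT library, and it was not tested without rdd B, rdd C or rdd D or with the 8 libraries alone. AT3G01270, a pectate lyase gene, showed a like pattern with 0.181, 1.05, 1.06 and 2.20 CPM in rdd and at most 0.114 CPM in WT. Its call (edgeR adjusted p = 0.0439) was lost in 11 of 16 alternative fits, among them each that left out a WT library. The summed level of the 6 flower and pollen markers was 0.741 to 3.65 CPM in WT and 2.71, 3.97, 5.01 and 19.5 CPM in rdd A to D, of which PI made up 16.0 CPM in rdd D, while AP3 stayed at or below 0.162 CPM; their part in the VGD1 result was not tested.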

How the data were processed

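Per the submitters' processing notes, FastQC, Trim Galore, STAR, HTSeq and DESeq2 were used; genome build, annotation and strandedness: not given in the sources used here. The authors deposited whole-number counts per gene for each library, with 37336 genes and 5 summary lines, which were left out (reads in no gene 1.62% to 2.17% of a WT or rdd library, in several genes 0.132% to 0.147%). Per the file headers, the deposited DESeq2 table holds a mean signal (counts over size factors), a log2 fold change, a score (the test statistic) and a p-value, and served for comparison only.

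Counts were tested with edgeR 4.0.16 in R 4.3.3: filterByExpr with a minimum count of 10 (18598 genes), TMM scaling, and robust quasi-likelihood fits of 4 group means over all 15 libraries (11 residual degrees of freedom, common biological coefficient of variation 0.266). The threshold was a Benjamini-Hochberg adjusted p under 0.05. The contrasts were rdd against WT, drdd against dme and their difference. Tested on simulated data of 18382 genes for rdd against WT, the fit recovered 41 and 44 of 50 genes changed 4-fold down and up. It recovered 37 and 33 of 50 changed 2-fold, with 8 calls in error. The changed genes were not drawn from the lowest levels, and simulated libraries of a group differed only at random and in depth. These rates therefore do not cover genes near 0 or the uneven stress genes of the real libraries. Alternatives were DESeq2 1.42.0, RLE size factors, no filter, the compared libraries alone, the replicate letter as a block, each library left out, stricter thresholds and other distances.

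The summary tables were made with Python 3.11.15 and pandas 2.3.3. Names, types, positions and start regions came from RefSeq assembly TAIR10.1, which matched 37051 of 37336 identifiers. Distances rest on that assembly.

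Named genes were the 4 demethylases and FLC, the 12 largest rises and falls, the 8 most abundant and the 6 of lowest adjusted p per direction, called list members and runs of 3 neighbours; rises and falls needed groups without overlap and a mean of at least 1 CPM. SEH, KELP, CRK39, CRK40, QQS, SCPL7, CSLB03, AMP1, ENT6, AT4G13575, MRU1, AT3G19850, EXL3, AT2G32170 and the uncalled list genes were chosen after their values were seen. The comparison, lists and rules were chosen with earlier results of these data known.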

Additional observations from a re-analysis of the deposited data

Results flagged for a closer look

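The edgeR test of the difference passed in 20 of all tested genes, of which 7 were among the 200 called in rdd against WT. In these 7 the effect of losing ROS1, DML2 and DML3 differed between plants with intact and with mutated DME. The log2 difference of both effects was -3.35 for AT2G33830, -1.90 for AMP1, 3.84 for ENT6, -1.54 for AT4G13495, -2.64 for AT4G13575, -2.40 for MRU1 and -3.03 for MAF5.

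In 4 of the 116 groups of 4 libraries looked at, 1 library stood far from the other 3, and chance alone gives about 1 in 20 such groups. AT2G32160 was at 0.722 CPM in rdd A against 0.105 to 0.176 in the other rdd libraries, and CYP81D11 was at 6.59 CPM in rdd A against 1.81 to 2.40. VGD1 was at 0.0823 CPM in WT D, which is 1 count, and at 0 in the other WT libraries. AT2G35810 was at 69.4 CPM in rdd B against 68.4 in each of the others, a gap that is small beside its rise.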

How the results depend on the processing

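Over single libraries left out, the calls of rdd against WT ranged from 93 to 327 (32 to 139 higher, 57 to 204 lower), those of drdd against dme from 126 to 494 (48 to 188 higher, 75 to 316 lower), those of their difference from 6 to 45 and the genes called in both from 52 to 96. Calls of drdd against dme were 188 without dme B, 222 without dme D, 156 without drdd B and 126 without drdd C; genes called in both were 53 without drdd B and 52 without drdd C. Calls of the difference were 13 without WT B or WT C, 8 without dme B, 6 without drdd C, 45 without drdd D, 9 without rdd A and 7 without rdd C.

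DESeq2 on 15 libraries gave 625 calls (2.97%; 258 higher, 367 lower) for rdd against WT, 991 (427 and 564) for drdd against dme, 183 for the difference, 185 in both and 147 within 2 Mb. Chosen after the data were seen, DESeq2 on the 8 libraries gave 957 (504 and 453), and edgeR without rdd B and dme C gave 504 (223 and 281). With the replicate letter as a block the counts were 111 (45 and 66), 225 (86 and 139), 12 and 51, in that order of comparisons. The letters were not taken to pair libraries: deviations from the group means of same-lettered WT and rdd libraries had correlations of -0.196, -0.495, -0.216 and 0.292, and no WT library correlated best with the rdd library of its letter. With only the compared libraries, drdd against dme gave 134 (50 and 84) and 44 genes passed in both. An adjusted p under 0.01 left 77 calls (28 and 49) and a 2-fold minimum 110 (39 and 71). Within 1 Mb lay 34 calls and within 5 Mb 105. RLE scaling and no filter stayed within 1.5 times. Of 54 named calls 28 passed in every alternative fit and 26 were lost at least once; no direction turned. The cause of these shifts was not tested. Depth limits genes near 0, where 1 count is 0.0431 to 0.114 CPM.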
